A study of Danio rerio with 3 samples.

Results

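The comparison described here sets 1 zebrafish (Danio rerio) brain library, labelled Zn15, against another, labelled Zn10. They are 2 of the 3 libraries of a study that asked how zinc acts on the zebrafish brain, and they hold 8004 of its 13683 barcodes. The members were taken by their treatment labels: Zn15 had 5154 barcodes and 1634806 unique molecular identifiers (UMIs, each standing for 1 captured transcript molecule), and Zn10 had 2850 barcodes and 974866 UMIs. A library labelled Ctrl, the control, entered no ratio, and its level is given for some genes beside theirs. Both came from suspended brain cells captured in droplets on the 10x Genomics system, where a barcode marks the content of 1 droplet. The sources used here do not give what the numbers 10 and 15 count, how and for how long the fish met zinc, their age, sex and strain, or how many fish went into a library. Each side is 1 library, so nothing below has a check against biological replicates, and every ratio compares these libraries, not the conditions.

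Zinc is both a structural metal of many proteins and a signal in the brain, where some glutamatergic nerve terminals store it in synaptic vesicles and release it. Free zinc inside cells is kept low by metallothioneins, small cysteine-rich proteins, and by membrane transporters of the slc30 family, which move zinc out of the cytosol, and the slc39 family, which move it in. In vertebrates metallothionein genes are switched on by metal through the transcription factor Mtf1, and heat shock and endoplasmic reticulum chaperones respond to misfolded protein.

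Depth was low in both libraries, with medians of 255 UMIs and 146.5 genes per barcode in Zn15 and 271 UMIs and 164 genes in Zn10. The nuclear RNA malat1 took 32.3% of UMIs in Zn15 and 27.0% in Zn10, and mitochondrially encoded transcripts took 0.206% in Zn15 and 0.0913% in Zn10. The labels say cells, and whether whole cells or nuclei were loaded was not settled from the counts. Haemoglobin genes gave 9 UMIs in Zn15 and 2 in Zn10, so red blood cells were at or near 0 in both. The libraries shared 4 barcode sequences. Levels are in counts per 1000000 UMIs of the library (CPM). A gene with no UMI would stand below 1.84 CPM in Zn15 and 3.08 CPM in Zn10, the level of 3 counts.

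Genes were compared by the ratio of CPM in Zn15 over Zn10. The middle gene of that ratio stood at −0.14 on the log2 scale, so each value below is a relative log2 ratio, from which that shift was taken. Intervals are 95% exact intervals for counting error only. Those of ratios treat every UMI as independent, also UMIs of the same barcode. They hold none of the spread between barcodes, fish, dissociations or library preparations. Of 6603 genes with 30 or more UMIs in the 2 libraries together, 752 were at least 1.5-fold higher in Zn15 (11.4%) and 754 at least 1.5-fold lower (11.4%), which makes 22.8% in either direction. With total UMIs as the only scale and no shift, 487 were higher and 1108 lower. Many of these genes had few UMIs. Of 3104 genes with 100 or more UMIs, 37 were higher with the whole interval past 1.5-fold (1.19%) and 43 lower (1.39%), 2.58% in all. In sums over all barcodes of a library, fewer cells of a type and less RNA per cell cannot be told apart.

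**Figure D1:**
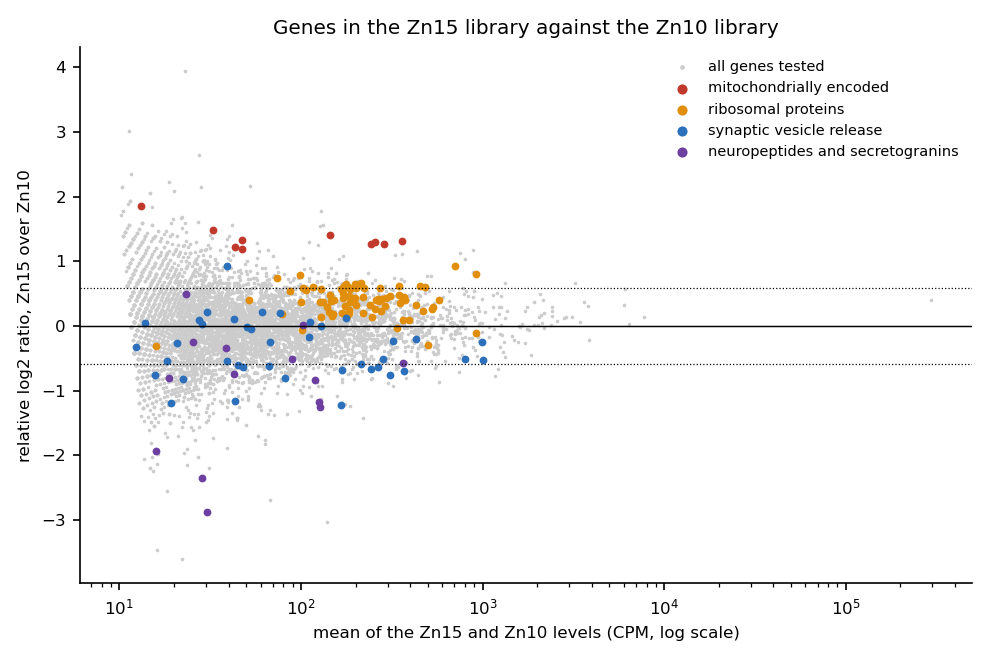
Each point is 1 of 6603 genes; the x axis gives the mean of its Zn15 and Zn10 levels in CPM on a log scale and the y axis its relative log2 ratio, Zn15 over Zn10, with dotted lines at 1.5-fold. The 10 mitochondrially encoded genes lie above the upper line, most ribosomal protein genes lie above 0, and 8 of the 14 neuropeptide genes lie below the lower line.

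Transcripts of the mitochondrial genome, which encodes core subunits of the respiratory chain, stood higher in Zn15. All 10 of its protein genes that passed the filter on low counts, of 13 in the files, were at least 1.5-fold higher, with a median of 1.31 against 0.00 for all genes tested. Their summed level was 2061 CPM in Zn15 and 913 CPM in Zn10 (1.31, interval 1.21 to 1.42), and 2111 CPM in Ctrl. The oxidase subunit gene mt-co2 had 819 UMIs in Zn15 (501 CPM) and 216 in Zn10 (222 CPM), a relative log2 ratio of 1.32 (1.099 to 1.54). The cytochrome b gene mt-cyb stood at 205 CPM in Zn15 and 85.1 CPM in Zn10 (1.41, 1.06 to 1.77). ATP synthase subunit gene mt-atp6 stood at 335 CPM in Zn15 and 154 CPM in Zn10 (1.26, 1.0004 to 1.53). A further feature of mitochondrial sequence, ENSDARG00000080337, which has no gene symbol in the files, was at 1195 CPM in Zn15 and 586 CPM in Zn10 (1.17, 1.03 to 1.31). The genes span a narrow range, from 1.19 for mt-nd1 to 1.85 for mt-nd6. The UMIs of mt-co2 were spread over 623 barcodes in Zn15 and 161 in Zn10, and those of mt-cyb over 289 barcodes in Zn15 and 74 in Zn10. Nuclear genes for subunits of the same respiratory chain did not share the difference. Of 54 tested, 3 were at least 1.5-fold higher in Zn15 (5.56%) and 4 lower (7.41%). The background over all genes tested was 11.4% each way. The median of the 54 was −0.18, and it was 0.06 in barcodes with at least 200 genes.

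Ribosomal protein genes leaned the same way by a smaller amount. Of 78 tested, of 81 in the files, 73 lay above 0, 18 were at least 1.5-fold higher in Zn15 and 0 at least 1.5-fold lower, with a median of 0.40. Their summed level was 21748 CPM in Zn15, 18362 CPM in Zn10 and 19093 CPM in Ctrl. The gene rpl12 had 897 CPM in Zn15 and 518 CPM in Zn10 (0.93, 0.79 to 1.08), and rpl6 1129 CPM in Zn15 and 709.8 CPM in Zn10 (0.81, 0.68 to 0.94). At the other end rps19 stood at 428 CPM in Zn15 and 577.5 CPM in Zn10 (−0.29, −0.46 to −0.13). Translation factor genes had a median of 0.17, with 6 of 49 higher (12.2%) and 2 lower (4.1%). Over all genes tested 11.4% were higher and 11.4% lower, so the share of higher translation factors was near the background. Among them eif4g2b, an initiation factor for translation that does not start at the cap, was at 998 CPM in Zn15, 502 CPM in Zn10 and 532 CPM in Ctrl (1.13, 0.99 to 1.28).

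Beside the mitochondrial genes, the 12 genes farthest above no difference held 6 nuclear genes, among them 2 of membrane traffic. The gene tsg101b encodes a subunit of the ESCRT-I complex, which sorts receptors for degradation. It had 137 UMIs in Zn15 (83.8 CPM) and 20 in Zn10 (20.5 CPM), a relative ratio of 4.501-fold (2.804 to 7.601). The acyl-CoA-binding Golgi protein gene acbd3 stood at 345 CPM in Zn15 and 155 CPM in Zn10 (1.295, 1.034 to 1.564), and pdia6, a protein disulfide isomerase of the endoplasmic reticulum, at 185 CPM in Zn15 and 69.8 CPM in Zn10 (1.55, 1.17 to 1.95). The cationic amino acid transporter gene slc7a3b was at 193 CPM in Zn15 and 71.8 CPM in Zn10 (1.57, 1.19 to 1.96). The uncharacterised gene zgc:103700 was at 195 CPM in Zn15 and 62.6 CPM in Zn10 (1.776, 1.377 to 2.196). In Ctrl, tsg101b stood at 85.4 CPM, slc7a3b at 239.6 CPM and zgc:103700 at 280.2 CPM, whereas acbd3 stood at 133 CPM and pdia6 at 74.8 CPM.

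Genes of neuronal signalling were lower in Zn15. The 12 genes farthest below no difference included syt13, an atypical synaptotagmin, with 42 UMIs in Zn15 (25.7 CPM) and 98 in Zn10 (101 CPM), −1.83 (−2.39 to −1.29). Synaptogyrin gene syngr3b, whose protein sits in the synaptic vesicle membrane, was at 92.4 CPM in Zn15 and 238 CPM in Zn10 (−1.23, −1.53 to −0.92). Its RNA was not confined to neurons. In barcodes with oligodendrocyte markers it stood at 227 CPM in Zn15 and 379 CPM in Zn10 (−0.65, −1.34 to 0.05). In barcodes with general neuron markers it stood at 137 CPM in Zn15 and 319 CPM in Zn10. The AMPA receptor auxiliary subunit gene cacng8a stood at 52.0 CPM in Zn15 and 143 CPM in Zn10 (−1.32, −1.72 to −0.92). PACAP, a neuropeptide encoded by adcyap1b, was at 70.34 CPM in Zn15 and 185 CPM in Zn10 (−1.25, −1.60 to −0.91). The kinase-like vesicle protein gene camkvb stood at 43.4 CPM in Zn15 and 123 CPM in Zn10 (−1.36, −1.81 to −0.93). The receptor gene gpr139, which marks the habenula, was at 111 CPM in Zn15 and 327 CPM in Zn10 (−1.42, −1.69 to −1.16). The 7 habenula marker genes, of which gpr139 is 1, summed to 160 CPM in Zn15 and 442 CPM in Zn10. Of their UMIs gpr139 gave 181 of 261 in Zn15 and 319 of 431 in Zn10, so the sum largely repeats its value. Barcodes positive for these markers numbered 20 in Zn15 (0.388%) and 30 in Zn10 (1.05%). The part of these barcodes in the gpr139 value was not tested. Other genes among these 12 were the transcription factor gene zbtb1 (−1.71), the chromatin reader gene pwwp2a (−1.39), the cadherin gene cdh4 (−1.37), the actin-binding thymosin gene tmsb2 (−1.20), atp1b1b (−1.24) and si:dkey-85n7.6 (−1.53).

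**Figure D2:**
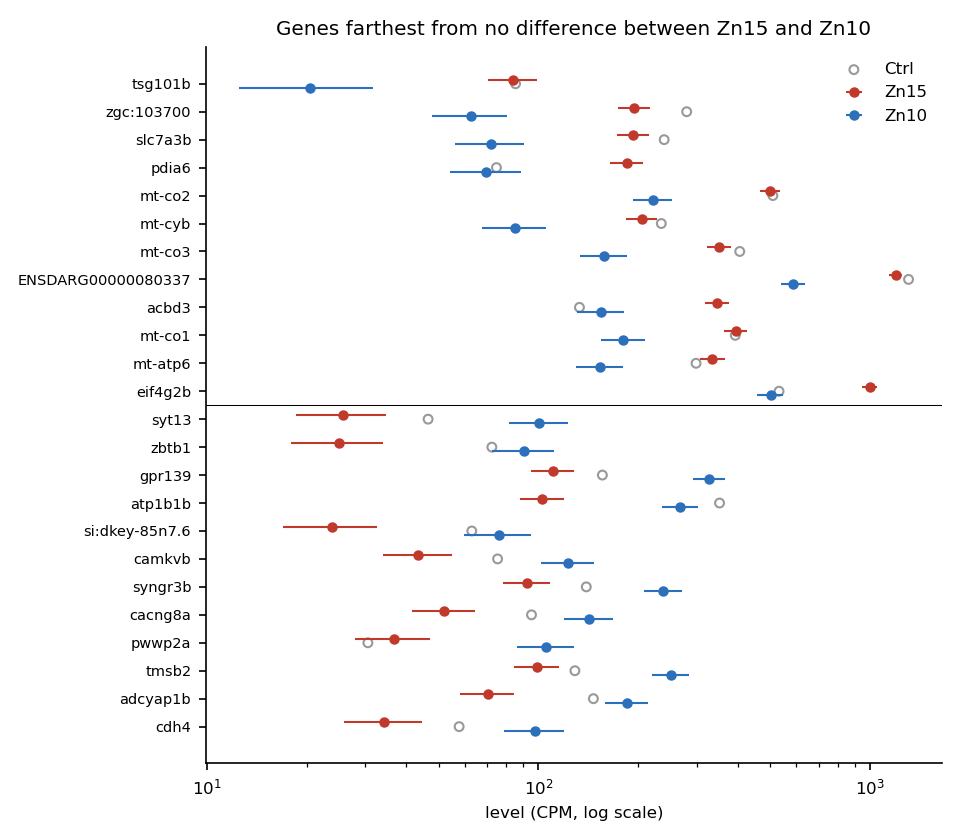
Levels in CPM on a log scale of the 12 genes farthest above (upper rows) and below (lower rows) no difference, in Zn15 (red) and Zn10 (blue) with 95% counting intervals, and in Ctrl (open grey). The genes were chosen by their intervals in these 2 libraries, so intervals that lie apart follow from the choice. In the upper rows Zn15 is higher, with tsg101b at 83.8 CPM in Zn15 and 20.5 CPM in Zn10. In the lower rows Zn10 is higher, with syt13 at 25.7 CPM in Zn15 and 101 CPM in Zn10.

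Several lists of synaptic genes had more members lower than higher in Zn15, though many members lay within 1.5-fold. The background over all genes tested was 11.4% lower and 11.4% higher. Of 40 genes of synaptic vesicle release, 15 were at least 1.5-fold lower in Zn15 and 1 higher, with a median of −0.42; the exception was napab, at 49.5 CPM in Zn15 and 28.7 CPM in Zn10. The SNARE gene snap25a stood at 784 CPM in Zn15 and 1240 CPM in Zn10 (−0.52, −0.64 to −0.41), and stxbp1a, which templates SNARE assembly, at 623 CPM in Zn15 and 984 CPM in Zn10 (−0.52, −0.65 to −0.39). Glutamate receptor genes had 12 of 16 lower and 0 higher, with a median of −0.76. The AMPA receptor gene gria2b was at 252 CPM in Zn15 and 432 CPM in Zn10 (−0.64, −0.84 to −0.44), and the metabotropic receptor gene grm5a at 22.6 CPM in Zn15 and 66.7 CPM in Zn10 (−1.42, −2.04 to −0.81). Another AMPA receptor gene went the other way: gria1a stood at 139 CPM in Zn15 and 108 CPM in Zn10 (0.51, 0.17 to 0.86).

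Genes that make and carry transmitters had 6 of 9 lower and 1 higher, with a median of −0.63. For this and the next lists the background over all genes tested was 11.4% on each side. The vesicular glutamate transporter gene slc17a6b was at 412 CPM in Zn15 and 702 CPM in Zn10 (−0.63, −0.78 to −0.47). The GABA-synthesising enzyme gene gad2 was at 169 CPM in Zn15 and 325 CPM in Zn10 (−0.81, −1.04 to −0.57). Neuropeptide and secretogranin genes had 8 of 14 lower and 0 higher, with a median of −0.77. The granule protein gene scg2b stood at 72.2 CPM in Zn15 and 181 CPM in Zn10 (−1.18, −1.53 to −0.84), while scg3 stood at 97.9 CPM in Zn15 and 107 CPM in Zn10 (0.02, −0.35 to 0.39). Sodium-potassium pump genes had 4 of 13 lower and 0 higher, with a median of −0.25. The neuronal catalytic subunit gene atp1a3a was at 526 CPM in Zn15 and 953 CPM in Zn10 (−0.72, −0.85 to −0.58), and the beta subunit gene atp1b1b at 103 CPM in Zn15, 268 CPM in Zn10 and 352 CPM in Ctrl. In contrast atp1b1a, a second copy of that beta subunit gene, stood at 476 CPM in Zn15 and 447 CPM in Zn10 (0.23, 0.06 to 0.40). Of 19 glycolysis genes 4 were lower and 1 higher, with a median of −0.19. Genes of young neurons and axon growth had 0 of 46 higher and 4 lower, with a median of −0.08.

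Lists of glial and immune genes stood above the middle gene. Their counts stand beside a background of 11.4% higher and 11.4% lower over all genes tested. Antigen presentation had 5 of 10 genes at least 1.5-fold higher in Zn15 and 0 lower (median 0.56), microglia and macrophage genes 12 of 33 higher and 1 lower (median 0.44), and myelin genes 4 of 20 higher and 1 lower (median 0.48). The class I antigen-presenting gene mhc1uba was at 154 CPM in Zn15 and 68.7 CPM in Zn10 (1.31, 0.91 to 1.72), and 1 barcode held 10.4% of its Zn10 UMIs. The class II invariant chain gene cd74a was at 1352 CPM in Zn15 and 1046 CPM in Zn10 (0.51, 0.40 to 0.62), and the lysosomal protease gene ctsd at 89.9 CPM in Zn15 and 58.5 CPM in Zn10 (0.76, 0.31 to 1.23). Myelin protein zero, encoded by mpz, stood at 1101 CPM in Zn15 and 677 CPM in Zn10 (0.84, 0.71 to 0.97), and myelin basic protein, encoded by mbpa, at 1285 CPM in Zn15 and 1013 CPM in Zn10 (0.48, 0.37 to 0.59), beside 2406 CPM in Ctrl. Radial glia are the stem-like glia of the fish brain. Their list had 7 of 38 higher and 1 lower (median 0.26), with the glutamine synthetase gene glula at 3786 CPM in Zn15 and 2639 CPM in Zn10 (0.66, 0.59 to 0.73). Cell cycle genes had 8 of 33 higher and 4 lower (median 0.22).

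Genes that handle zinc had a median close to the middle gene, and 8 of the 10 tested lay within 1.5-fold. Of these 10 metallothionein and zinc transporter genes, of 23 in the files, 0 were at least 1.5-fold higher in Zn15 and 2 lower (20%). The background over all genes tested was 11.4% each way. Their median was −0.06, and they ran from −0.96 to 0.46. The metallothionein gene mt2 had 667 UMIs in Zn15 (408 CPM) and 466 in Zn10 (478 CPM), a relative log2 ratio of −0.09 (−0.26 to 0.09), and 896 CPM in Ctrl. Another metallothionein gene, mtbl, had 22 UMIs in Zn15 and 15 in Zn10 (−0.05, −1.07 to 0.998). The zinc exporter gene slc30a1a, a target of Mtf1 in vertebrates, stood at 110 CPM in Zn15 and 104 CPM in Zn10 (0.23, −0.13 to 0.59). The mt2 UMIs lay in 341 barcodes in Zn15 and 155 in Zn10, and the ratio ran from −0.40 to 0.50 over the processing alternatives.

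Heat shock chaperone genes had a median of −0.02, with 1 of 26 higher and 2 lower, and their members parted. The inducible gene hsp70l stood at 3362 CPM in Zn15 and 4307 CPM in Zn10 (−0.22, −0.28 to −0.16), beside 6663 CPM in Ctrl. The heat shock factor gene hsf2 was at 199 CPM in Zn15 and 405 CPM in Zn10 (−0.89, −1.10 to −0.67). On the higher side the small heat shock protein gene hspb1 was at 219.6 CPM in Zn15 and 138.5 CPM in Zn10 (0.805, 0.516 to 1.102), and the cytosolic Hsp90 gene hsp90ab1 at 2342 CPM in Zn15 and 1954 CPM in Zn10 (0.40, 0.32 to 0.48). The hsp70 genes have near-identical copies, among which reads may have been divided in an uncertain way. One of them, hsp70.3, stood at 3348 CPM in Zn15 and 3549 CPM in Zn10 (0.06, −0.01 to 0.12). In the endoplasmic reticulum list 4 of 29 genes were higher (13.8%) and 0 lower (median 0.20), against 11.4% each way over all genes tested. Its chaperone gene hspa5 stood at 799 CPM in Zn15 and 720.1 CPM in Zn10 (0.29, 0.16 to 0.42). The stress transcription factor gene atf4b was at 591.5 CPM in Zn15 and 743 CPM in Zn10 (−0.19, −0.33 to −0.05). Of 22 antioxidant genes 1 was higher and 1 lower, with a median of 0.07 that was −0.07 without the shift; the gene of the antioxidant regulator Nrf2, nfe2l2a, was the higher member, at 141 CPM in Zn15 and 83.1 CPM in Zn10 (0.90, 0.53 to 1.28).

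**Figure D3:**
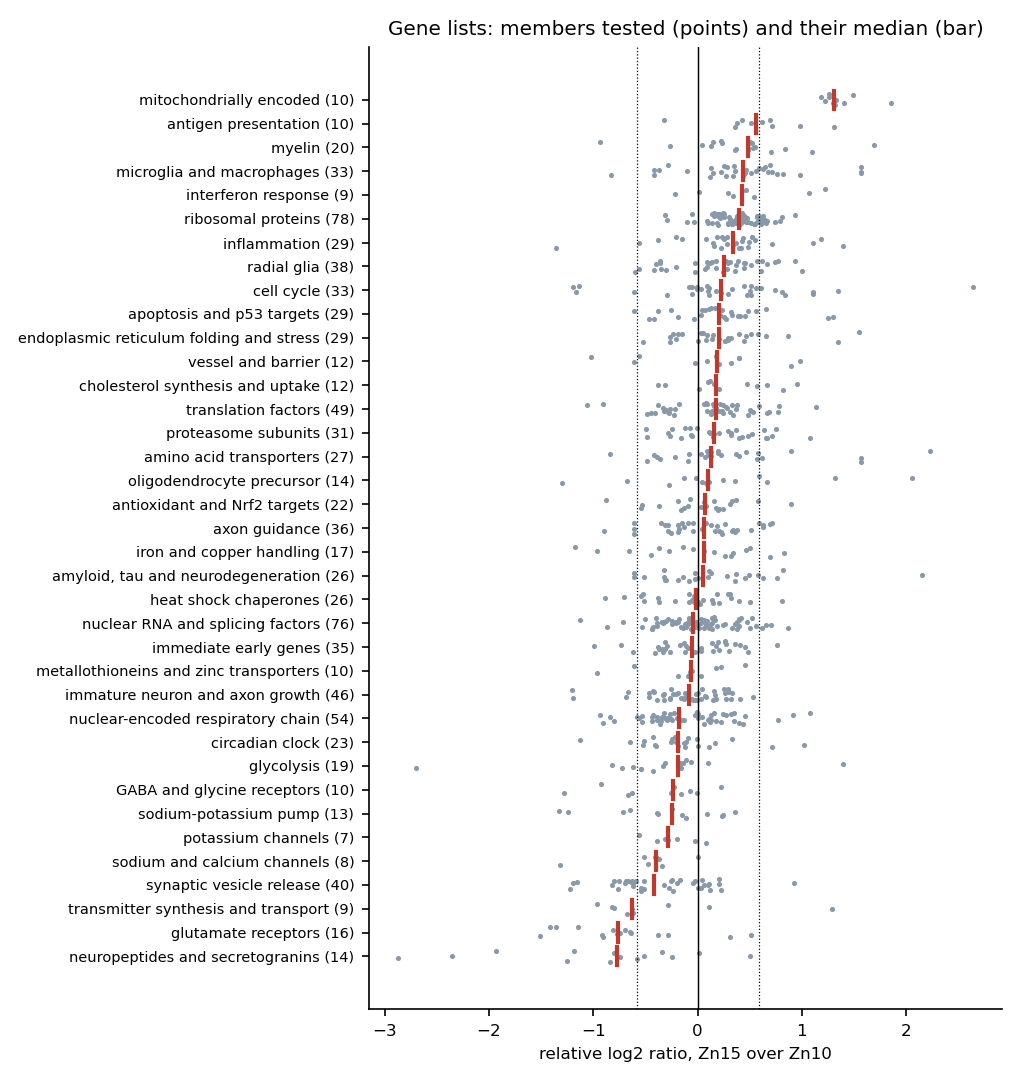
Each row is a gene list with the number of members tested; points are members and the red bar is their median on the relative log2 ratio, Zn15 over Zn10, with dotted lines at 1.5-fold. Mitochondrially encoded genes stand at the top with a median of 1.31, and neuropeptides and secretogranins at the bottom with −0.77.

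Which cells the libraries held was asked next. A barcode was counted as positive for a cell class when it held UMIs of at least 2 different markers of that class and of more of them than of any other class, except for neuron (any), which was scored apart. GABAergic neurons, named by gad1a, gad1b, gad2, slc32a1, dlx and related genes, were fewer in Zn15: 116 barcodes, 2.25% (1.86 to 2.69), against 117 barcodes in Zn10, 4.11% (3.41 to 4.90). Zn15 over Zn10, that share was 0.548 (0.420 to 0.715). With every barcode thinned to 200 UMIs, which left out 1690 barcodes of Zn15 and 824 of Zn10, the shares were 1.56% in Zn15 and 2.76% in Zn10, a ratio of 0.564 (0.381 to 0.835). Barcodes positive for oligodendrocyte markers should lack GABAergic genes. When classes could overlap, 2 of 522 of them in Zn15 (0.383%) and 3 of 273 in Zn10 (1.099%) also passed the GABAergic rule. Without overlap, median depth among oligodendrocyte-positive barcodes was 289 UMIs in Zn15 and 256.5 in Zn10. Among GABAergic-positive barcodes it was 330.5 UMIs in Zn15 and 455 in Zn10.

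Barcodes positive for general neuron markers made up 40.8% of Zn15 (39.4 to 42.1) and 46.8% of Zn10 (45.0 to 48.7), or 0.871 times the Zn10 share (0.813 to 0.933), and 30.3% of Zn15 and 37.1% of Zn10 after thinning. Oligodendrocyte-positive barcodes should lack these markers. When classes could overlap, the share among them was 28.35% in Zn15 and 30.04% in Zn10, so the neuron shares hold a large background. Median depth was 273 UMIs in Zn15 and 320 in Zn10 in barcodes with neuron markers. Microglia or macrophage barcodes were at 5.74% in Zn15 (5.12 to 6.41) and 4.60% in Zn10 (3.86 to 5.43). Their ratio was 1.25 (1.01 to 1.55), and it was 1.26 after thinning with an interval that includes 1 (0.976 to 1.65). With overlap between classes allowed, 5 of 522 oligodendrocyte-positive barcodes in Zn15 and 0 of 273 in Zn10 also passed the microglia rule. Without overlap, microglia had a median of 428 UMIs in Zn15 and 363 in Zn10. Ratios for oligodendrocytes (1.05), radial glia (1.12), cerebellar granule neurons (1.07), immature neurons (1.02) and dividing cells (1.11) had intervals that include 1, so a difference was not detectable at this depth. With at least 100 genes per barcode the radial glia ratio was 1.22 (1.03 to 1.45). Oligodendrocyte precursor barcodes, below 50 in each library, numbered 20 in Zn15 (0.388%) and 28 in Zn10 (0.982%). After thinning their shares were 0.548% in Zn15 and 0.740% in Zn10.

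**Figure D4:**
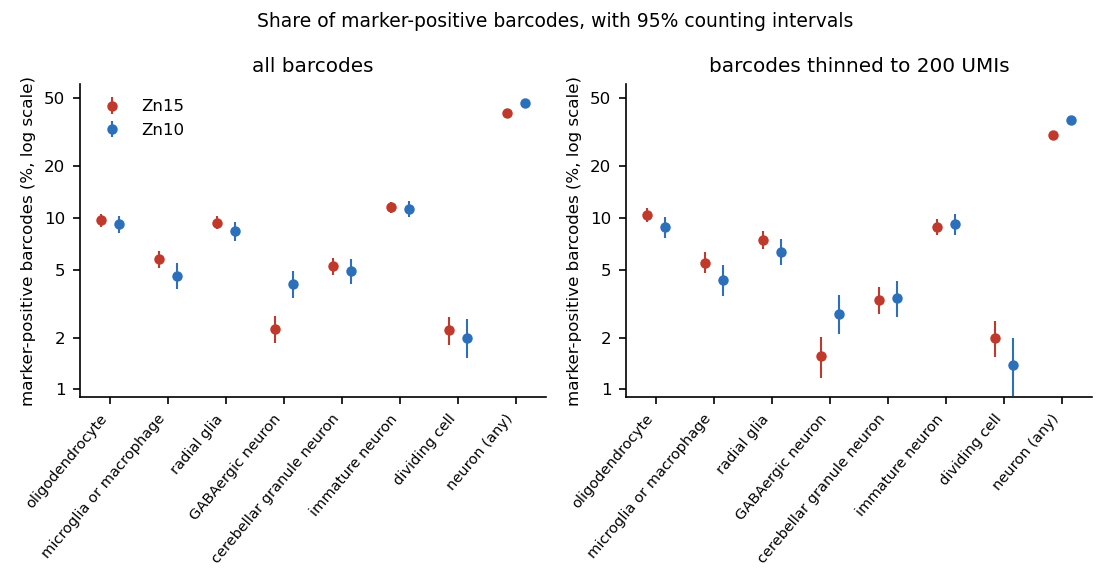
Share of barcodes positive for the markers of each class, in percent on a log scale, in Zn15 (red) and Zn10 (blue) with 95% exact intervals, for all barcodes (left) and for barcodes thinned to 200 UMIs (right). GABAergic neurons stand at 2.25% in Zn15 and 4.11% in Zn10 on the left, and their intervals are apart there.

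Counts were then summed within each class, with its own markers left out and its own shift taken off. Genes named within classes had no limit on the share of their UMIs in 1 barcode, so single barcodes may carry some. Over the classes, 9.25% to 15.3% of genes tested were at least 1.5-fold lower in Zn15, and 10.3% (dividing cells) to 17.3% (microglia) at least 1.5-fold higher. The mitochondrial difference was present in every class. The summed relative log2 ratio of the 13 genes was above 0 with its whole interval in 7 of 7 classes, from 0.72 (0.40 to 1.04) in oligodendrocytes to 1.97 (1.34 to 2.63) in GABAergic neurons, and 1.297 (1.145 to 1.451) in barcodes of no class. Microglia held 340 such UMIs in Zn15 and 53 in Zn10, and radial glia 495 in Zn15 and 126 in Zn10. In barcodes with general neuron markers 9 of 9 genes tested were at least 1.5-fold higher, where 505 of all 4402 genes tested were. After thinning, the value was 0.415 in oligodendrocytes, 0.888 in cerebellar granule neurons, 0.966 in microglia and 0.978 in GABAergic barcodes. With 3 markers required it was 2.34 in cerebellar granule and 2.75 in GABAergic neurons.

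Ribosomal protein genes had their whole interval above 0 in 4 of 7 classes. Immature neurons showed 26 of 73 genes at least 1.5-fold higher and 0 lower, against backgrounds of 13.5% and 15.3% there, with a sum of 5161 UMIs in Zn15 and 2593 in Zn10 (0.43, 0.36 to 0.50). Radial glia had 18 of 68 higher and 1 lower, against 13.3% and 12.6%, with a sum at 0.31 (0.23 to 0.40). GABAergic neurons stood at 0.47 (0.24 to 0.71), though the 1 gene with enough UMIs to be tested there was lower (−0.94). Microglia stood at 0.11 (0.01 to 0.21), with 13 of 59 genes higher and 1 lower, against 17.3% and 9.25%. The microglia level was 20973 CPM in Zn15 and 22055 CPM in Zn10, so its side of 0 rests on the shift of −0.18 there. After thinning to 200 UMIs the radial glia, GABAergic and microglia values turned to −0.01, −0.12 and −0.29, and the immature neuron value was 0.17. With 3 markers required, immature neurons stood at 0.29 and GABAergic neurons at 0.19. Oligodendrocytes (0.02, −0.10 to 0.14), cerebellar granule neurons (0.03, −0.09 to 0.16) and dividing cells (0.06, −0.04 to 0.16) had intervals across 0.

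Synaptic vesicle genes were then compared within neuron classes, without a test of the difference between classes. Within GABAergic barcodes genes of vesicle release summed to 845 UMIs in Zn15 and 1468 in Zn10, a relative log2 ratio of −0.00 (−0.13 to 0.12). Their level there was 18562 CPM in Zn15 and 21574 CPM in Zn10, so that value rests on the class shift of −0.22. The shift of immature neurons was −0.06, so the values of these 2 classes have unequal shifts taken off. Within cerebellar granule barcodes the sum stood at 0.07 (−0.07 to 0.22). Thinned to 200 UMIs, granule barcodes stood at −0.19, and with 3 markers required at −0.07. Barcodes with general neuron markers stood at −0.27 (−0.33 to −0.21), with 7 of 32 genes at least 1.5-fold lower and 2 higher. Their value lay between −0.18 and −0.16 after thinning or with 3 markers required. In immature neurons 11 of 15 genes were at least 1.5-fold lower and 1 higher, against backgrounds of 15.3% and 13.5%. The sum there was 856 UMIs in Zn15 and 897 in Zn10 (−0.63, −0.76 to −0.49). That sum was −0.30 after thinning and −0.31 with 3 markers required, so much of its distance from the granule value depended on these settings. There snap25a had 84 UMIs in Zn15 and 136 in Zn10 (−1.26, −1.67 to −0.85), and the vesicle glycoprotein gene sv2a 20 in Zn15 and 43 in Zn10 (−1.66, −2.51 to −0.87). In the same barcodes transmitter genes summed to −0.88 (−1.18 to −0.58) and neuropeptide genes to −1.16 (−1.53 to −0.79), while the share of them that also carried 2 general neuron markers was 57.6% in Zn15 and 65.9% in Zn10; the part of that in the result was not tested. Neuropeptide genes were also lower within GABAergic barcodes, at 123 UMIs in Zn15 and 313 in Zn10 (−0.55, −0.86 to −0.25).

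**Figure D5:**
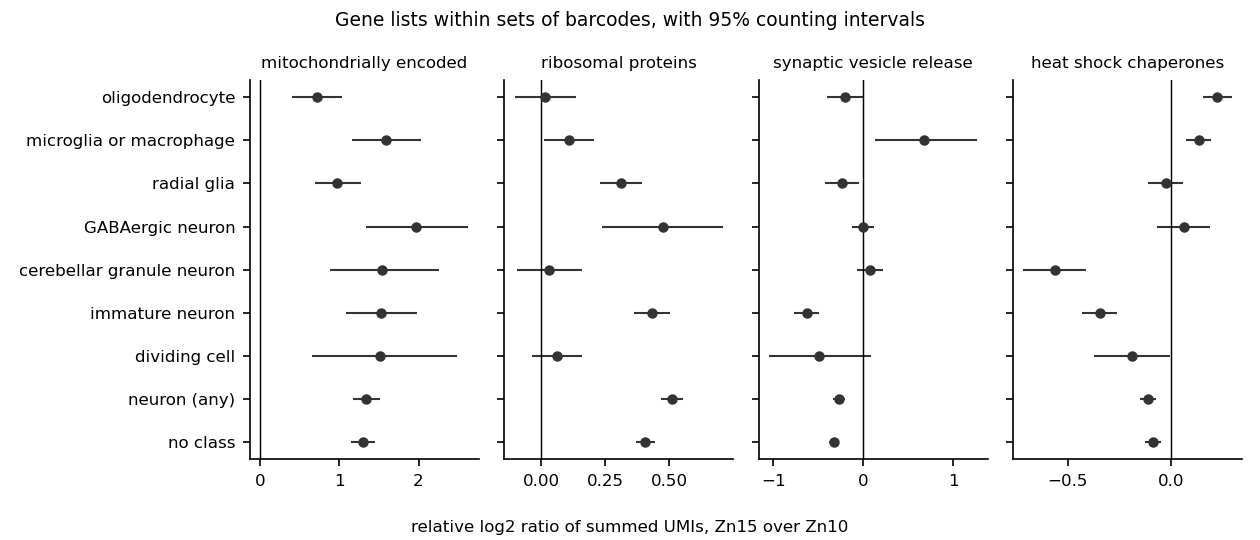
Relative log2 ratio of the summed UMIs of 4 gene lists, Zn15 over Zn10, within 9 sets of barcodes, with 95% counting intervals and 0 as the black line. Each set has its own shift taken off, so the zero differs between sets. The mitochondrial list lies above 0 in every set, synaptic vesicle genes are at −0.63 in immature neurons and −0.00 in GABAergic neurons, and heat shock genes run from −0.56 in cerebellar granule neurons to 0.22 in oligodendrocytes.

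Heat shock chaperones had sums on both sides of 0 among the cell classes. After the shift of each class, their sum was higher in Zn15 within oligodendrocytes (0.22, 0.15 to 0.29) and microglia (0.13, 0.07 to 0.19). The microglia level was 56828 CPM in Zn15 and 58850 CPM in Zn10, so its side of 0 rests on the shift of −0.18 there. The sum was lower within cerebellar granule neurons (−0.56, −0.71 to −0.41), immature neurons (−0.35, −0.43 to −0.26) and dividing cells (−0.19, −0.37 to −0.01). Radial glia (−0.03, −0.11 to 0.06) and GABAergic neurons (0.06, −0.07 to 0.19) had intervals across 0. In oligodendrocytes 1 of 19 genes was at least 1.5-fold higher and 2 lower, against backgrounds of 11.2% and 12.3%. Their median was 0.05, so the sum did not stand for most members. In microglia 0 of 17 genes were past 1.5-fold either way, where 17.3% of all genes tested were higher and 9.25% lower. The microglia sum was 0.0046 with 3 markers required and 0.13 after thinning. Granule neurons stood at −0.25 with 3 markers required and −0.44 after thinning. The gene hsp70l had 1047 UMIs in Zn15 and 529 in Zn10 within oligodendrocytes (−0.02, −0.17 to 0.14), and 209 in Zn15 and 276 in Zn10 within immature neurons (−0.96, −1.23 to −0.70). It stood at −0.54 (−0.75 to −0.34) in radial glia. In immature neurons the Hsp110 family gene hspa4a had 29 UMIs in Zn15 and 69 in Zn10 (−1.81, −2.49 to −1.17).

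The metallothionein gene mt2 stood on opposite sides of 0 in 2 glial classes. Within oligodendrocytes it had 91 UMIs in Zn15, in 48 barcodes, and 18 in Zn10, in 17 barcodes (1.34, 0.60 to 2.16). Within radial glia it had 101 UMIs in Zn15, in 56 barcodes, and 118 in Zn10, in 27 barcodes (−1.22, −1.62 to −0.83). The richest barcode held 22.0% of the Zn15 UMIs in oligodendrocytes and 24.6% of the Zn10 UMIs in radial glia. Within cerebellar granule neurons mt2 had 11 UMIs in Zn15 and 31 in Zn10 (−2.21, −3.36 to −1.18), with 27.3% of the Zn15 UMIs and 41.9% of the Zn10 UMIs in 1 barcode each. The differences between classes were not tested.

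Microglia are the resident macrophages of the brain, and the class called microglia here did not part them from other macrophages. Within its barcodes the inflammation list had a lower sum in Zn15, with most of the list's genes within 1.5-fold. It summed to 1487 UMIs in Zn15 and 917 in Zn10 within them (−0.40, −0.52 to −0.28), with 0 of 14 genes higher and 3 lower, against backgrounds of 17.3% and 9.25%. The same list stood higher in Zn15 over the whole libraries, at 2399 CPM in Zn15 and 2222 CPM in Zn10 (0.25, 0.17 to 0.33), and in barcodes of no class (0.38, 0.25 to 0.51), where 8 of 20 genes were higher and 1 lower, beside 487 and 447 of all 4065 genes tested there. It was also higher within oligodendrocytes, at 173 UMIs in Zn15 and 60 in Zn10 (0.53, 0.10 to 0.98), and neuron (any) barcodes (0.75, 0.55 to 0.94). Immature neurons stood at 121 UMIs in Zn15 and 50 in Zn10 (0.71, 0.23 to 1.22). Cerebellar granule neurons held 48 UMIs in Zn15 and 9 in Zn10 (1.695, 0.65 to 2.91). In these last classes 0 members had enough UMIs to be tested. When classes could overlap, 10 of 321 microglia-positive barcodes in Zn15 and 1 of 136 in Zn10 also passed the granule rule. For the immature neuron rule those counts were 8 in Zn15 and 1 in Zn10. The part of such mixed barcodes in these sums was not tested. Radial glia (0.16, −0.09 to 0.43), GABAergic neurons (−0.15, −1.20 to 0.83) and dividing cells (−0.30, −1.05 to 0.47) had intervals across 0. Within microglia the cytokine gene il1b had 214 UMIs in Zn15, in 94 barcodes, and 175 in Zn10, in 46 barcodes (−0.80, −1.0999 to −0.51). Over the whole libraries il1b stood at 232 CPM in Zn15 and 294 CPM in Zn10 (−0.20, −0.43 to 0.02). Genes of antigen presentation within microglia were at 0.06 (−0.13 to 0.26). Also lower were the thioredoxin-interacting protein gene txnipa, with 271 UMIs in Zn15 and 318 in Zn10 (−1.33, −1.57 to −1.09), and epd, which encodes ependymin, a secreted brain glycoprotein of fish, with 842 in Zn15 and 938 in Zn10 (−1.25, −1.39 to −1.12). In Zn10, epd stood at 16819 CPM in this class and 2422 CPM in radial glia. When classes could overlap, 10.6% of this class in Zn15 and 11.8% in Zn10 also passed the radial glia rule. The part of such barcodes in the epd value was not tested. Higher were eif4g2b, with 165 UMIs in Zn15 and 24 in Zn10 (1.69, 1.06 to 2.37), and slc7a3b, with 47 in Zn15 and 5 in Zn10 (2.14, 0.81 to 3.83).

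Radial glia had higher cyp26b1, whose enzyme degrades retinoic acid, with 62 UMIs in Zn15 and 5 in Zn10 (2.632, 1.333 to 4.305), and higher lipg, which encodes endothelial lipase, with 162 in Zn15 and 23 in Zn10 (1.82, 1.18 to 2.51). Genes of cholesterol synthesis and uptake summed to 381 UMIs in Zn15 and 120 in Zn10 there (0.67, 0.37 to 0.98). Within dividing cells the cholesterol list was lower (−0.58, −1.01 to −0.14). Of 7 classes its interval lay above 0 in 1 and below 0 in 1. In radial glia sodium-potassium pump genes were lower (−0.58, −0.73 to −0.43), as was epd, with 250 UMIs in Zn15 and 260 in Zn10 (−1.06, −1.31 to −0.80). Within oligodendrocytes the RNA-binding protein gene larp4ab had 68 UMIs in Zn15 and 9 in Zn10 (1.92, 0.91 to 3.11). It was also higher within microglia, with 130 UMIs in Zn15 and 23 in Zn10 (1.40, 0.76 to 2.11). In oligodendrocytes hsf2 had 41 UMIs in Zn15 and 56 in Zn10 (−1.45, −2.07 to −0.84). Myelin genes other than the markers stood at −0.01 (−0.21 to 0.20) there.

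The set of neuron-marker barcodes, which shares barcodes with the other classes, held more RNA of glial and immune lists in Zn15. In that set the microglia list summed to 787 UMIs in Zn15 and 253 in Zn10 (1.32, 1.12 to 1.53). The antigen presentation list summed to 610 in Zn15 and 182 in Zn10 (1.43, 1.19 to 1.68), and the myelin list to 5110 in Zn15 and 2679 in Zn10 (0.62, 0.55 to 0.69). The invariant chain gene cd74a alone had 261 UMIs in Zn15, in 41 barcodes, and 29 in Zn10, in 20 barcodes (2.86, 2.30 to 3.46). The richest barcode held 19.9% of its Zn15 UMIs and 13.8% of its Zn10 UMIs. Among barcodes positive for microglia markers when classes could overlap, 26 of 321 in Zn15 (8.10%, 5.36 to 11.6) and 2 of 136 in Zn10 (1.47%, 0.179 to 5.21) also passed the neuron rule. Of the oligodendrocyte class, 27.9% in Zn15 and 29.4% in Zn10 passed the neuron rule too. The mbpa UMIs of the neuron-marker set lay in 146 barcodes in Zn15 and 81 in Zn10. The part of such mixed barcodes in the neuron values was not tested. Within all neuron-marker barcodes syngr3b had 98 UMIs in Zn15 and 168 in Zn10 (−1.09, −1.46 to −0.72). The somatostatin gene sst1.1 had 10 in Zn15 and 48 in Zn10 there (−2.58, −3.72 to −1.57), and over how many barcodes was not counted. The nuclear RNA malat1 was higher in Zn15 in each class, from 0.16 (0.14 to 0.17) in radial glia to 0.66 (0.63 to 0.69) in GABAergic neurons.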

How the data were processed

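Per the file headers, the deposited matrices were written by Cell Ranger 4.0.0 and hold UMI counts per gene and barcode; the authors' values are whole numbers, not normalised. Per the submitters' processing notes, the genome build was GRCz11 and the tools included Seurat and fastp. The sources used here do not give cell calling settings or the use of intronic reads. The files pair 32057 gene identifiers with symbols, of which 28988 matched the gene name table.

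All deposited barcodes were used, with no doublet or free RNA correction. Counts were summed per library (1634806 UMIs in Zn15, 974866 in Zn10), as CPM. The zero of each log2 ratio was the median ratio over 4965 genes of 50 or more UMIs. With 1 library per side no test across samples was possible and no p-value was computed. Ratios carry exact conditional binomial intervals, CPM Poisson intervals and shares Clopper-Pearson intervals, at 95%, for counting error only. Genes of 100 or more UMIs were named when no barcode held over 10% of their UMIs in the library where they were higher: the 12 on each side whose interval bound lay farthest from no difference, the largest and farthest members of each list, and mt2, mtbl, hsp70l, malat1, il1b and mbpa regardless of value. Within classes the 5 farthest genes each way with 50 or more UMIs were taken, without the limit on UMIs in 1 barcode. A class needed 50 positive barcodes per library. The members and the 37 gene lists were chosen with earlier results of these data known. The code was tested on simulated counts. Python 3.11.15, numpy 2.4.6, scipy 1.17.1 and pandas 2.3.3 were used.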

Additional observations from a re-analysis of the deposited data

How the results depend on the processing

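With total UMIs and no shift, 487 genes were higher, and the list medians were −0.56 (synaptic vesicle release), −0.91 (neuropeptides), 0.30 (microglia), 1.17 (mitochondrial) and 0.26 (ribosomal); antioxidant genes turned to −0.067 and amino acid transporters to −0.00995, since the shift itself was −0.14. Scaling without malat1 put ribosomal genes at 0.37. Genes of 10 or more UMIs gave 1807 higher and 1768 lower, vesicle release −0.51, neuropeptides −1.01 and immediate early genes 0.0047; genes of 100 or more gave 201 higher and 208 lower, vesicle release −0.51 and immediate early genes 0.0047. Barcodes with at least 100 genes gave −0.51 (vesicle release), 1.43 (mitochondrial) and 0.44 (ribosomal), and with at least 200 genes −0.56, 1.73 and 0.61, with 0.64 for microglia, 0.059 for the nuclear respiratory chain and 0.056 for ncoa4. Thinning to 200 UMIs gave 444 higher and 370 lower, vesicle release −0.29, neuropeptides −0.48, mitochondrial 1.12 and ribosomal 0.37. Within classes thinning gave mitochondrial values of 0.966 (microglia), 0.978 (GABAergic) and 1.16 (neuron (any)), ribosomal values of −0.29 (microglia), −0.0096 (radial glia) and −0.12 (GABAergic), and vesicle release of −0.26 (microglia), 0.015 (radial glia) and −0.30 (immature neurons, −0.63 unthinned). Without the 1% of barcodes richest in each gene, a step that takes a larger share of genes with fewer UMIs (31.2% of mitochondrial UMIs in Zn15 and 46.3% in Zn10), 340 genes were higher, and the medians were −0.505 (vesicle release), −0.88 (neuropeptides), 0.74 (microglia), 1.78 (mitochondrial), 0.50 (ribosomal) and 0.18 (immediate early genes). Requiring 3 markers moved the neuron (any) share ratio to 0.761, mitochondrial values to 2.75 (GABAergic) and 2.34 (cerebellar granule) and vesicle release in radial glia to 0.15; 1 marker moved the share ratio to 0.948. Except for the shift, the cause of these moves was not tested. The GABAergic share ratio stayed between 0.515 and 0.577.

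Leaving out replicates was not possible with 1 library per side. No paired analysis was possible because each treatment had 1 library. Promoter motifs were not run, since no promoter sequences were used here. At this depth a gene with few UMIs, or a class below 50 barcodes, gives no usable ratio.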

Other observations

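The remaining gene lists of the same comparison gave these counts and medians, beside 11.4% higher and 11.4% lower over all genes tested. Proteasome genes had 6 of 31 at least 1.5-fold higher in Zn15 and 0 lower (median 0.15), cholesterol genes 3 of 12 higher and 0 lower (0.18), interferon genes 2 of 9 higher and 0 lower (0.42), inflammation genes 4 of 29 higher and 1 lower (0.34), apoptosis and p53 genes 3 of 29 higher and 1 lower (0.21), and amino acid transporters 5 of 27 higher and 1 lower (0.13). Vessel genes had 2 of 12 higher and 2 lower (0.19), oligodendrocyte precursor genes 4 of 14 higher and 2 lower (0.10), axon guidance genes 5 of 36 higher and 4 lower (0.06), iron and copper genes 2 of 17 higher and 3 lower (0.06), and amyloid genes 4 of 26 higher and 2 lower (0.05). Splicing genes had 4 of 76 higher and 3 lower (−0.04), immediate early genes 1 of 35 higher and 3 lower (−0.05), and circadian genes 2 of 23 higher and 2 lower (−0.19). GABA and glycine receptor genes had 0 of 10 higher and 4 lower (−0.24), potassium channels 0 of 7 on either side (−0.29), and sodium and calcium channels 0 of 8 higher and 1 lower (−0.40).

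Where the control library stood beside the pair differed between the 2 sides. Of the 37 genes higher in Zn15 with the whole interval past 1.5-fold, Ctrl was nearer to Zn15 in CPM for 28 and nearer to Zn10 for 9. Among those 37, 8 were protein genes of the mitochondrial genome, and the mitochondrial feature ENSDARG00000080337 was a further one. Of the 43 lower genes, Ctrl was nearer to Zn15 for 21 and nearer to Zn10 for 22, and lay between the libraries for 33. The same count was not made over all genes tested, so neither side has a background to be read against.

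Some genes past the same bound were left out of the named ones because single barcodes carried them. The pineal photoreceptor opsin gene exorh had 45 UMIs in 4 barcodes of Zn15 and 243 in 12 barcodes of Zn10, beside 0.589 CPM in Ctrl, and barcodes positive for pineal markers numbered 2 in Zn15 and 9 in Zn10. The aldolase gene aldoca, a marker of Purkinje neurons, had 27 UMIs in Zn15 and 115 in Zn10, where 1 barcode held 87.0% of them.

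In the gene order of the RefSeq assembly GRCz12tu, which placed 5933 of 6507 genes with a unique symbol, 5 genes past the bound lay within 30 consecutive tested genes: zbtb1 (−1.71), ino80 (1.11), srsf5b (−1.13), acbd3 (1.295) and pdia6 (1.55). That was the most in any of 5208 windows; 3938 windows held 0 and 68 held 3 or more. The window was looked at after the values were seen. In CPM, ino80 stood at 478 in Zn15, 244 in Zn10 and 207 in Ctrl.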
